A study of Mus musculus with 6 samples.

Results

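The collagen genes are the 42 of 14617 listed mouse genes whose symbol is Col, a type number, the letter a and a chain number. They were read in whole tibialis anterior, a fast muscle of the lower leg, from wild-type mice (WT, PRMT7+/+) and mice that lack Prmt7 (KO, PRMT7-/-). All were C57BL/6 and 8 months old, untreated as far as the labels say, and the labels name 3 mice of each genotype but neither their sex nor the deleted part of the gene. Prmt7 encodes a protein arginine methyltransferase, and the study compared messenger RNA between the genotypes. By the type of assembly they form, 11 of the 42 were fibrillar, 5 of the beaded filament (type VI), 6 of the basement membrane (type IV) and 20 other collagens. Col6a4, Col10a1 and Col21a1 were not analysed here.

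The authors deposited a mean normalized read count per genotype, from which the whole counts of 2 libraries per genotype were recovered. The names WT library 1 or 2 and KO library 1 or 2 stand for these. Within a genotype, library 1 is the one with the larger size factor (the divisor that scaled its counts). Equal numbers thus do not pair libraries across genotypes. The recovered libraries carry no mouse number, so p-values measure the spread between 2 libraries per group, which may be technical. They held 22629288 to 24814798 counts over listed genes. No column header names a genotype: the sheet's name gives WT first and KO second, and the first column was taken as WT, so all directions depend on this reading. Prmt7 itself had 885 and 844 normalized counts in WT and 706 and 718 in KO (FDR 0.587 in the authors' deposited table), which does not settle the order. Xist, the RNA that silences an X chromosome in female cells, had 10800.0 and 11546 normalized counts in WT and 1.82 and 1.03 in KO, so sex and genotype cannot be told apart for any gene below. KO library 1 stood apart in markers of other cells: the 8 adipocyte markers had a median log2 value of 1.68 relative to the WT mean there and -0.63 in KO library 2, and the 6 satellite cell markers -0.98 and 0.04. The 7 markers of the muscle fibre itself summed to 2002030 to 2563790 normalized counts per library, with members that differed in opposite directions. Of its fast myosin heavy chains Myh4 was 1.61-fold higher in KO and Myh1 lower, at 0.457 times its WT mean. Both passed the FDR in the authors' deposited table (0.0113 and 8.08e-13). Myh2, at 0.136 times, and Pvalb, at 2.17 times, did not pass. The WT libraries also differed from each other. Myh2 had 109972 and 31555 normalized counts in WT and 11272 and 7952 in KO. Pvalb had 109864 and 199283 in WT and 278209 and 391365 in KO. The 8 macrophage markers had median log2 values relative to the WT mean of 0.26 and -0.31 in WT and 0.39 and 0.07 in KO.

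Collagens are trimers of chains wound into a triple helix; glycine recurs at a fixed spacing along each chain. Chains of types I, III and V co-assemble into the fibrils that bear load in the endomysium, perimysium and tendon, type IV forms the sheet that surrounds each muscle fibre and capillary, and type VI forms beaded filaments between the sheet and the fibrils. In muscle most fibrillar collagen is made by interstitial fibroblasts, also called fibro-adipogenic progenitors, and loss of type VI chains in mice and humans causes muscle disease.

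Most collagens of the fibrils and the beaded filaments had higher values in KO, few of them past the threshold, and those of the basement membrane did not. An FDR under 0.05 in the authors' deposited table was reached by 4 of the 42 collagen genes, all 4 higher in KO. Of all listed genes 2.71% passed, 1.01% higher and 1.7% lower. The 4 collagens were the fibrillar chains Col3a1 (1.94-fold) and Col1a2 (1.57-fold), the beaded filament chain Col6a6 (1.5-fold) and Col22a1 (1.48-fold), a collagen of the junction between muscle and tendon. The other 38 did not pass. Of the 42 genes, 14 had an unadjusted p under 0.05 in the same table, all higher in KO, against 5.08% of listed genes higher and 6.06% lower. In whole muscle, more or fewer cells of a type and more or less RNA per cell cannot be told apart.

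The log2 ratio of KO over WT lay above 0 for 36 of the 42 collagens and 50.9% of listed genes. Its median was 0.62 over the 11 fibrillar genes, 0.51 over the 5 beaded filament genes, 0.47 over the 20 other collagens and -0.11 over the 6 basement membrane genes, beside 0.01 over all listed genes. Both KO libraries lay above both WT libraries for 24 of the 42 collagens, against 25.8% of listed genes. These 24 were 10 of 11 fibrillar, 4 of 5 beaded filament, 0 of 6 basement membrane and 10 of 20 other genes. The opposite order was seen in 1 collagen, Col4a3, against 25.7% of listed genes. KO library 1 was higher than KO library 2 for 36 of the 42 genes, and WT library 1 higher than WT library 2 for 29. KO library 2 alone lay above both WT libraries for 25 of the 42, against 39.6% of listed genes, and for 14 of the 16 fibrillar and beaded filament genes. The class medians relative to the WT mean were 0.79 in KO library 1 and 0.48 in KO library 2 for fibrillar, 0.69 and 0.30 for beaded filament, -0.01 and -0.18 for basement membrane and 0.66 and 0.28 for other collagens. The differences between classes were not tested.

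**Figure D1:**
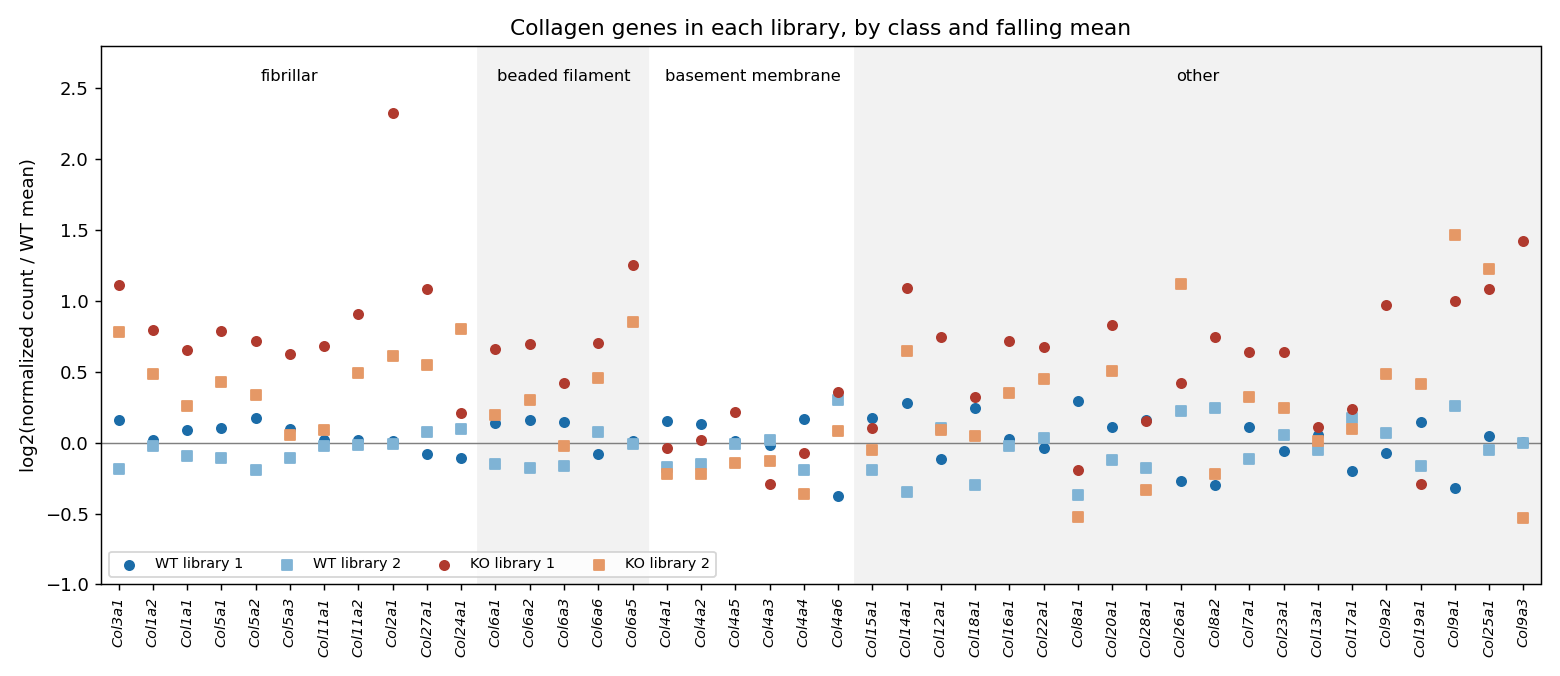
Each of the 42 collagen genes in the 4 libraries, as log2 of the normalized count over the WT mean (vertical axis), by class and by falling mean from left to right. Both KO libraries (red and orange) lie above both WT libraries (blue) for 10 of 11 fibrillar and 4 of 5 beaded filament genes and for 0 of 6 basement membrane genes.

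Refitted with limma on the recovered counts, on the scale log2(normalized count + 1), 0 of the 42 collagens had an adjusted p under 0.05, where 0.889% of 14053 tested genes did. At an unadjusted p under 0.05 limma called 18 of the 42, all higher in KO, against 19.6% of tested genes in either direction and 9.58% higher. The lowest adjusted p among collagens was 0.066, for Col22a1. With KO library 2 left out, limma called 11 collagens, all higher, where 1.5% of tested genes were called higher; with KO library 1 left out it called 0, with 15 at an unadjusted p under 0.05, all higher, against 9.56% of tested genes higher in that fit. The 11 were Col2a1, Col3a1, Col5a1, Col6a6, Col11a1, Col11a2, Col12a1, Col16a1, Col20a1, Col22a1 and Col27a1. In that fit the lone KO library is assumed to vary like the WT libraries.

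**Figure D2:**
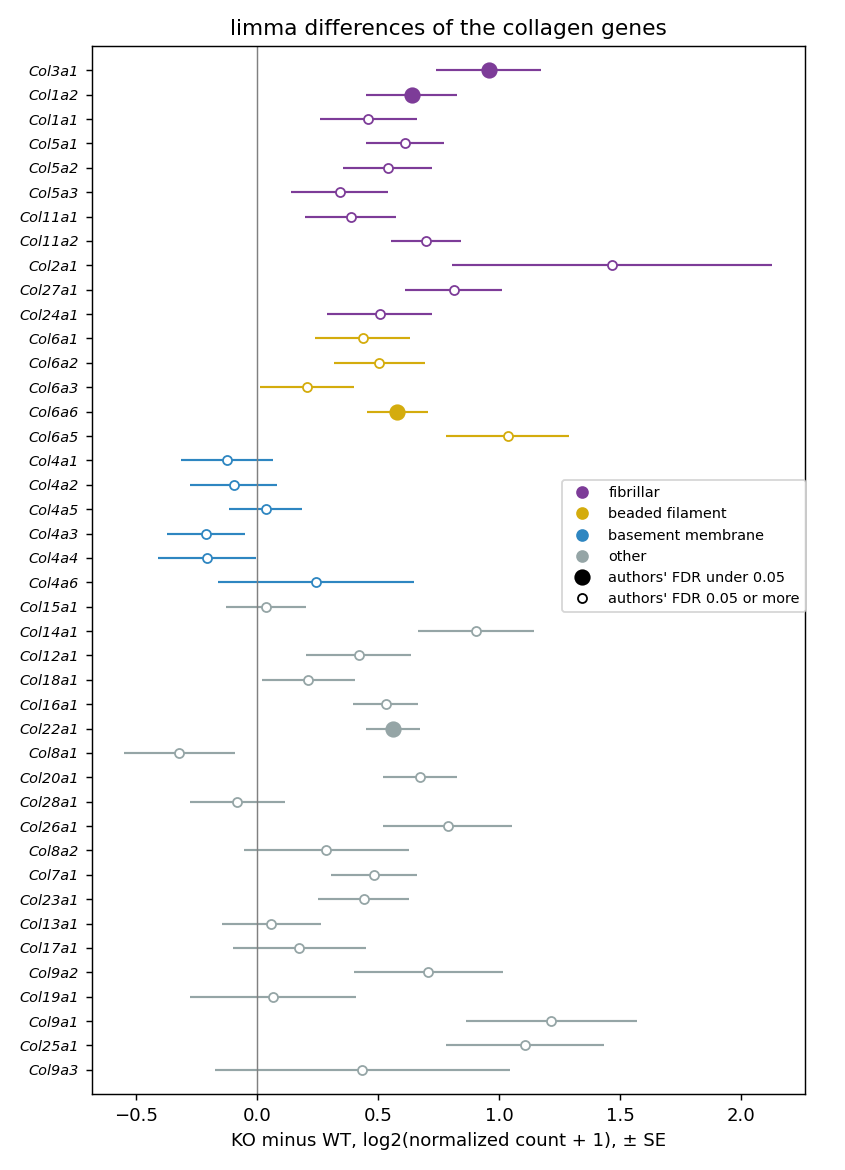
KO minus WT difference of each collagen gene from limma, in log2(normalized count + 1), with its SE (bars, 2 libraries per genotype); colour gives the class and filled points passed the authors' FDR of 0.05. The 11 fibrillar and 5 beaded filament genes lie to the right of 0, from 0.21 for Col6a3 to 1.47 for Col2a1, while the basement membrane genes lie on both sides of it.

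Among fibrillar collagens, Col3a1, the single chain of the type III homotrimer of compliant connective tissue (mm10 chromosome 1, 45311538 to 45349706) had 77992 and 61394 normalized counts in WT and 150433 and 120058 in KO. Both KO libraries were above both WT libraries, and the gene rose (FDR 0.00771 in the authors' deposited table). The limma log2 difference was 0.96 ± 0.216 (SE, n = 2 libraries per genotype; adjusted p = 0.081). Col1a2, the alpha 2 chain of type I collagen (chromosome 6, 4505697 to 4541543), had 53367 and 51739 normalized counts in WT and 91213 and 73462 in KO. It rose too (FDR 0.0299, same table), with a limma difference of 0.64 ± 0.188 (adjusted p = 0.136). Its partner Col1a1, the alpha 1 chain (chromosome 11, 94936270 to 94951856), had 48216 and 42453 in WT and 71491 and 54251 in KO. Col1a1 was 1.39-fold higher with groups that did not overlap, but did not pass (FDR 0.442, same table). Per kb of transcript, the KO means stood in the order Col3a1 at 24307, Col1a2 at 15396 and Col1a1 at 10602 normalized counts, the same order as in WT, where they were 12526, 9827 and 7645.

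The 250 bases upstream of the RefSeq start (GRCm38.p6) are shown for Col3a1, Col1a2 and Col6a6, 3 of the 4 called genes; that of Col22a1 is not shown. Capitals mark the TATA box TATAAA, the CCAAT box CCAAT and the GC box GGGCGG on either strand; the motifs do not overlap in these windows. The window lies at chr1:45311288-45311537 (plus strand) for Col3a1, chr6:4505368-4505617 (plus) for Col1a2 and chr9:105828086-105828335 (minus) for Col6a6. Those of Col3a1 and Col6a6 adjoin the deposited loci, while that of Col1a2 ends short of the deposited start at 4505697.
Col3a1: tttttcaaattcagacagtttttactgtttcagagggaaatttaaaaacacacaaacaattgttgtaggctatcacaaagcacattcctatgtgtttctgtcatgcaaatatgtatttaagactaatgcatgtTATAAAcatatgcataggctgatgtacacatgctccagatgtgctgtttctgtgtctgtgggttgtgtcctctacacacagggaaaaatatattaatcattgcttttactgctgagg
Col1a2: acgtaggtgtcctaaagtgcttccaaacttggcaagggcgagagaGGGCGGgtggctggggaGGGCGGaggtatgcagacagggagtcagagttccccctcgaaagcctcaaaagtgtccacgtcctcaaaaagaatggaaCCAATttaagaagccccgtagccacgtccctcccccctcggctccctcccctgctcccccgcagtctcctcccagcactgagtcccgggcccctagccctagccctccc
Col6a6: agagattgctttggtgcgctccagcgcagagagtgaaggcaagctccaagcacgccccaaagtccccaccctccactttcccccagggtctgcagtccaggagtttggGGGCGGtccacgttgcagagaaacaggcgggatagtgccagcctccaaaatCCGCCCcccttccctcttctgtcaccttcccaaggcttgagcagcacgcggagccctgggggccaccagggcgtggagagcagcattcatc
The Col3a1 window held 1 TATA box, that of Col1a2 held 1 CCAAT box and 2 GC boxes, and that of Col6a6 held 2 GC boxes. No motif was thus common to the 3. These are matches to the motif anywhere in the window. Their distance from the start was not used, and whether they act in the promoter was not tested. Of the 33 collagen genes with a RefSeq window, 4 (12.1%) held a TATA box, 11 (33.3%) a CCAAT box and 20 (60.6%) a GC box. Over the 10884 listed genes with a window the shares were 6.76%, 35.9% and 57.7%, and over all 26994 windows 13%, 34.4% and 32.9%.

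Type V collagen sets the diameter of type I fibrils from within, and its 3 chains were all higher in KO on average without passing the threshold. Col5a1 had 6584 and 5672 normalized counts in WT and 10575 and 8263 in KO (FDR 0.154 in the authors' deposited table). Col5a2, which lies 24624 bases from Col3a1 on chromosome 1, had 7113 and 5509 in WT and 10400.2 and 7966 in KO (FDR 0.431). For both genes the KO libraries lay above the WT libraries. Col5a3, a chain found in muscle and in nerve sheaths, had 6180.4 and 5359 in WT and 8906 and 5985 in KO. Its groups overlapped, because KO library 2 lay below WT library 1. Type XI collagen is the counterpart of type V in cartilage and is made at lower levels elsewhere. Col11a2 had 575 and 563 normalized counts in WT and 1068 and 801 in KO (FDR 0.124, limma difference 0.70 ± 0.144), and Col11a1 had 742 and 721 in WT and 1176 and 779.6 in KO.

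The 3 less abundant fibrillar genes were also higher in both KO libraries. Col27a1, a fibrillar chain of cartilage, had 147 and 163 normalized counts in WT and 328 and 226 in KO (FDR 0.234 in the authors' deposited table). Col24a1, a fibrillar chain known from developing bone, had 149.6 and 172 in WT and 186 and 280.5 in KO (FDR 0.691). Col2a1, the main collagen of cartilage, had 162 and 159.5 in WT and 807 and 245 in KO. Its ratio of 3.28 was the highest of the 42 and came mostly from KO library 1, with a limma difference of 1.47 ± 0.662. It did not pass (FDR 0.719 in the authors' deposited table). The chains of type IX collagen, which coats type II fibrils, had low counts: Col9a1 had 14.96 and 22.3 in WT and 37.2 and 51.6 in KO, Col9a2 had 25.9 and 28.7 and then 53.6 and 38.2, and Col9a3 had 14.96 and 14.89 and then 39.95 and 10.3. Both KO libraries were higher for Col9a1 and Col9a2 and not for Col9a3. Of 7 measured bone and cartilage markers, 4 had a log2 ratio above 0 and 0 passed the FDR; they summed to 157 and 322 normalized counts in WT and 261 and 349 in KO, and Bglap and Ibsp, both of bone, had no count in WT library 1. Acan, the main proteoglycan of cartilage, had 25.8 to 40.9 normalized counts in the 4 libraries, at a ratio of 0.841. Sox9 (1.55-fold higher) and Matn3 (1.57-fold higher), also on this list, did not pass. Every KO value of these 2 genes exceeded every WT value. The part of such cells in these values was not tested.

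Markers of cells that make fibrillar collagen differed in both directions, more of them higher in KO. Of 10 markers of fibro-adipogenic progenitors, 1 passed the FDR, Dpt (dermatopontin, a fibril-associated matrix protein), at 1.43-fold higher (1.01% of listed genes were called higher). For 7 of the 10 both KO libraries lay above both WT libraries, against 25.8% of listed genes, and Ly6a (0.918-fold) and Pi16 (0.991-fold) had ratios below 1. The 10 summed to 61085 and 57013 normalized counts in WT and 78120 and 66854 in KO, and none was at 0. Within each library, the fibrillar collagen counts were 3.29 and 3.05 times those marker counts in WT and 4.44 and 4.07 times in KO. Col3a1 alone gave 1.28 and 1.08 in WT, then 1.93 and 1.80 in KO. Col1a1 gave 0.789 and 0.745 in WT and 0.915 and 0.811 in KO. All 3 measures were higher in both KO libraries than in both WT libraries. They share 1 denominator, and Col3a1 and Col1a1 are part of the fibrillar sum, so they are not separate results. Dcn alone gave 23089 and 22411 of the marker counts in WT and 32155 and 27062 in KO. Of 8 tendon markers, 1 passed, Kera (2.02-fold higher), and 6 had a log2 ratio above 0. In 5 of the 8 each KO value exceeded each WT value, against 25.8% of listed genes. Tnmd (1.57-fold), Mkx (1.43-fold) and Fmod (1.35-fold) were among these 5 and did not pass. Chad, at 0.621-fold, was the 1 marker with the opposite order, seen in 25.7% of listed genes. Thbs4, the most abundant, was at 0.885-fold. The 8 summed to 17925 and 13839 normalized counts in WT and 21597 and 15045 in KO. Pdgfra, the receptor that defines fibro-adipogenic progenitors, had 1433 to 1652 in WT and 1605 to 2422 in KO, and Scx, a transcription factor of tendon cells, 265 to 266 and 278 to 312. The part of these cells in the collagen values was not tested.

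Type VI collagen is a trimer of an alpha 1, an alpha 2 and a longer chain such as those encoded by Col6a3, Col6a5 and Col6a6. Col6a6 (chromosome 9, 105689417 to 105828085), which lies 27984 bases from Col6a5, had 406 and 452 normalized counts in WT and 699 and 588 in KO. The groups did not overlap and the gene rose (FDR 0.0468 in the authors' deposited table), with a limma difference of 0.58 ± 0.126 (adjusted p = 0.0754). Col6a5 had 40.9 and 40.4 in WT and 97.2 and 73.2 in KO, 2.1-fold higher without passing (FDR 0.14, same table). The abundant chains had smaller ratios and did not pass. Col6a1 had 11900.0 and 9728 in WT and 17103 and 12406 in KO (FDR 0.634), and Col6a2, its neighbour on chromosome 10, had 11000.4 and 8734 in WT and 15953 and 12142 in KO (FDR 0.467). Both KO libraries lay above both WT libraries for these 2 genes. Col6a3 had 12253 and 9856 in WT and 14786 and 10874 in KO (FDR 0.918), and KO library 2 lay between the WT libraries. Per kb of transcript the KO means were 3599 for Col6a1, 3557 for Col6a2, 1425 for Col6a3, 73.3 for Col6a6 and 9.17 for Col6a5, so the called chain was 1 of the least abundant of its type.

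None of the 6 basement membrane chains passed, and the libraries of the 2 genotypes overlapped for 5 of them. Col4a1 and Col4a2 form the type IV network of every basement membrane and start head to head, 2 bases apart in the deposited coordinates, on chromosome 8 (11198423 to 11312826 and 11312829 to 11449287). Col4a1 had 63474 and 50877 normalized counts in WT and 55612 and 49016 in KO (FDR 0.941 in the authors' deposited table). Col4a2 had 35057 and 28837 in WT and 32388 and 27363 in KO (FDR 0.966). In both genes each KO library lay within or just under the range of WT, and library 1 of each genotype was higher than library 2. The limma differences were -0.12 ± 0.19 and -0.09 ± 0.18; they were 0.10 and 0.13 after quantile normalization.

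The other type IV chains, which make the specialised networks of kidney, lung and smooth muscle, were far lower. Col4a3, the neighbour of Col4a4 on chromosome 1 at a distance of 71 bases, had 171 and 174 normalized counts in WT and 141 and 158 in KO (FDR 0.918 in the authors' deposited table). Col4a4 had 167 and 129.7 in WT and 141 and 115 in KO. Col4a5 and Col4a6 are on the X chromosome, where Xist separated the libraries as the genotype did. Col4a5 had 296 and 291 in WT and 341 and 266 in KO. Col4a6 had 11.97 and 19.1 in WT and 19.98 and 16.5 in KO. The WT and KO libraries overlapped for both. Per kb of transcript the WT means were 8643 for Col4a1 and 4953 for Col4a2 and 44.9 or less for the other 4.

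Basement membranes of muscle are shared by fibres and capillaries. All 8 endothelial markers had a log2 ratio below 0. For 7 of the 8, each KO library was lower than each WT library, against 25.7% of listed genes. The 2 that fell were Kdr and Flt1, the main receptors of VEGF (FDR 0.00782 and 0.0197 in the authors' deposited table). Of all listed genes 1.7% were called lower. The sums of the 8 markers were 41423 and 41251 normalized counts (WT) and 34477 and 33150.0 (KO). Of 8 markers of pericytes and smooth muscle, 6 had a ratio below 0 and 0 passed, with sums of 28001 and 28362 in WT and 25019.9 and 24910.5 in KO. No marker of these lists was at 0, and their part in the type IV values was not tested.

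Among the other collagens, the 9 FACITs, which sit on the surface of fibrils, all lay above 0 in log2 ratio (median 0.68). Col22a1 (chromosome 15, 71798476 to 72034227), found at the junction between muscle and tendon, had 847 and 889 normalized counts in WT and 1386 and 1185 in KO. It rose (FDR 0.0213 in the authors' deposited table) with groups that did not overlap, and limma gave 0.56 ± 0.111 (adjusted p = 0.066, and 0.0484 when libraries were scaled to totals without the 20 most abundant genes). Col20a1 had 284 and 242 in WT and 469 and 374 in KO (FDR 0.0645, same table). Col14a1, which binds fibrils of type I in tendon and muscle, had 1606 and 1039 in WT and 2822 and 2071 in KO (FDR 0.236). Col16a1 had 919.5 and 888 in WT and 1485 and 1149.8 in KO (FDR 0.205). For these 4 genes both KO libraries were above both WT libraries. Col12a1, a close relative of Col14a1 that rises with mechanical load, had 1394 and 1625 in WT and 2537 and 1604 in KO, so only KO library 1 was above both. Col19a1, a rare chain known from muscle development, had 27.2 to 44.3 normalized counts in the 4 libraries.

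The multiplexins Col15a1 and Col18a1 link basement membranes to the fibrils around them, and neither passed. Col15a1 had 12437 and 9638 normalized counts in WT and 11864 and 10657 in KO (the authors' deposited table lists an FDR of 1). Col18a1, the source of endostatin, had 1711 and 1171 in WT and 1806 and 1491 in KO (FDR 0.945). KO library 2 lay between the WT libraries for both genes, and KO library 1 did so for Col15a1. The remaining 9 genes did not pass. Of these, both KO libraries were above both WT libraries for Col7a1 (the anchoring fibril chain, 1.4-fold), Col23a1 (1.37-fold), Col25a1 (2.23-fold, at 14.9 to 36.1 normalized counts) and Col26a1 (1.75-fold). They overlapped for Col8a1, Col8a2, Col13a1, Col17a1 and Col28a1, of which Col8a1, a short-chain collagen of vessel walls, had the lowest log2 ratio of the 42, at -0.35. Col13a1, a membrane collagen of the neuromuscular junction, had 78.7 to 88.1 normalized counts in all 4 libraries. Col28a1, a collagen of peripheral nerve, had 358 and 283 in WT and 357 and 254 in KO. Of 9 Schwann cell markers 0 passed. Relative to the WT mean, their median log2 value was larger in KO library 1 (1.38) than in KO library 2 (0.45). For 8 of the 9, each KO library exceeded each WT library, against 25.8% of listed genes. All 9 had a log2 ratio above 0 (median 0.97). They summed to 8475 and 8966.5 normalized counts in WT and 24659.5 and 11979 in KO, with none at 0.

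The make-up of the collagen transcripts differed between the genotypes. The collagen share of all counts was 1.51% and 1.25% for WT and 2.26% and 1.72% for KO. Within the collagen counts, fibrillar genes took 56.3% and 57.9% in WT but 68.1% and 67.1% in KO, and basement membrane genes 27.8% and 26.7% in WT and 17.4% and 19% in KO. The libraries of the 2 genotypes did not overlap in either share. Col3a1, the most abundant fibrillar gene, held 77992 and 61394 of the 357386 and 300416 normalized collagen counts in WT. In KO it held 150433 and 120058 of 508647 and 405960, so much of the fibrillar shift lay in this 1 gene. The share of the other fibrillar genes was not computed. The share of the beaded filament was 9.96% and 9.59% in WT and 9.56% and 8.89% in KO. Fibrillar counts were 2.03 and 2.16 times the basement membrane counts in WT and 3.91 and 3.54 times in KO, a ratio in which the scaling of the libraries cancels. Longer transcripts give more reads, so these are shares of reads and not of molecules.

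**Figure D3:**
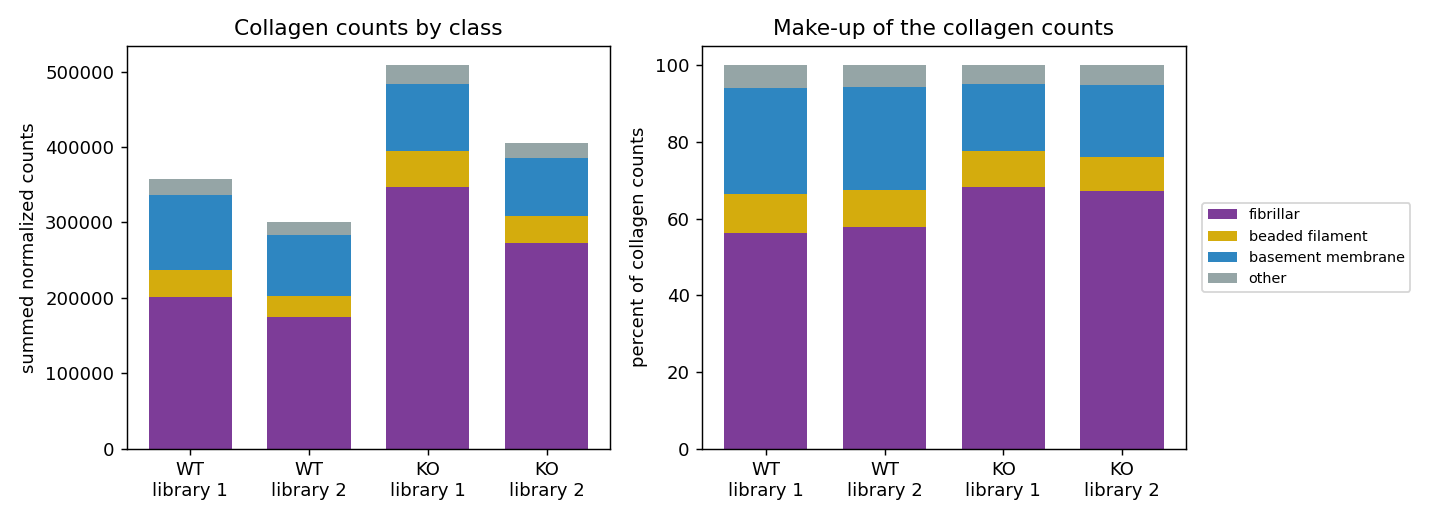
Collagen counts in each of the 4 libraries by class, as summed normalized counts (left) and as percent of all collagen counts (right), with stacked bars from 0. Fibrillar genes (purple) take 56.3% and 57.9% of collagen counts in WT but 68.1% and 67.1% in KO, and basement membrane genes (blue) 27.8% and 26.7% against 17.4% and 19%.

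Ratios between single chains were taken within each library, where scaling cancels as well. Col3a1 over Col1a1 was 1.62 and 1.45 in WT and 2.10 and 2.21 in KO, so the type III chain was higher against the type I chain in both KO libraries. Col1a2 over Col1a1 was 1.11 and 1.22 in WT and 1.28 and 1.35 in KO. This ratio also varied within WT: the 2 WT libraries lay further from each other than WT library 2 did from KO library 1. Col6a3 over Col6a1 was 1.03 and 1.01 in WT and 0.865 and 0.877 in KO, while Col6a2 over Col6a1 was 0.924 and 0.898 in WT and 0.933 and 0.979 in KO. The abundant long chain of type VI was thus lower against its partner in both KO libraries. Col5a3 over Col5a1 was 0.939 and 0.945 in WT and 0.842 and 0.724 in KO, lower in both KO libraries, whereas Col5a2 over Col5a1 was 1.08 and 0.971 in WT and 0.984 and 0.964 in KO. Col11a2 over Col11a1 was 0.776 and 0.780 in WT and 0.908 and 1.03 in KO. Col4a2 over Col4a1 was 0.552 and 0.567 in WT and 0.582 and 0.558 in KO, with overlapping groups, and ranged least of the ratios named here. Of 15 ratios computed, 9 were higher in both KO libraries, 3 lower and 3 overlapped. Several pairs share a gene, and the direction depends on which chain is the numerator. No share over pairs of other listed genes was computed, so the 9 and 3 show no tendency. Of single listed genes, 25.8% had both KO libraries above both WT libraries and 25.7% below. An exact two-sided permutation test of 2 against 2 libraries cannot give a p under 0.333, raw or adjusted over the 15 ratios, so that test could pass none of these differences; no other test was run on them.

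**Figure D4:**
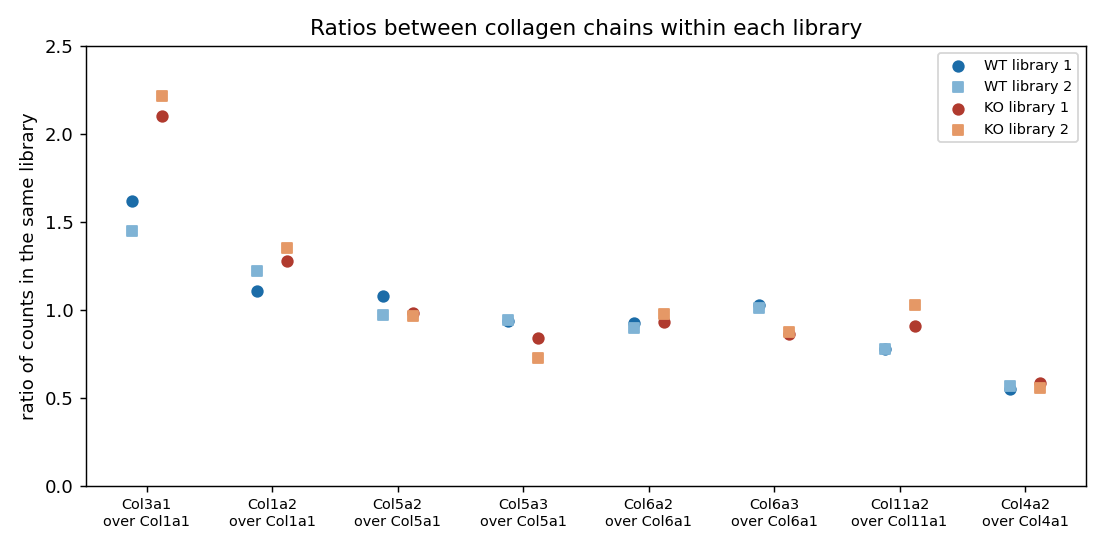
Ratio of the counts of a pair of collagen chains within each of the 4 libraries (vertical axis, from 0). Col3a1 over Col1a1 is 1.62 and 1.45 in WT against 2.10 and 2.21 in KO, while Col4a2 over Col4a1 lies between 0.552 and 0.582 in all 4 libraries.

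Collagen chains are hydroxylated and folded in the endoplasmic reticulum, exported in large carriers, trimmed outside the cell by proteinases and cross-linked by lysyl oxidases. Of 21 measured genes of folding and modification, 2 rose and 0 fell, 17 had a log2 ratio above 0, and the median was 0.25. Creb3l1, a transcription factor of the secretory pathway that acts on collagen genes, had 595 and 573 normalized counts in WT and 935 and 849 in KO (FDR 0.0207 in the authors' deposited table). Fkbp10, a prolyl isomerase needed for collagen cross-linking, had 789.9 and 669 in WT and 1100.5 and 1030.2 in KO (FDR 0.042, same table). For both genes the KO libraries lay close together and above WT. Of 8 measured genes of procollagen trimming, 3 rose and 0 fell, with a median of 0.43. Pcolce, the enhancer of C-propeptide removal, had 3796 and 3448 in WT and 5996 and 5364 in KO (FDR 0.000945, same table). Adamts14, an N-propeptidase, had 144 and 109.5 in WT and 265 and 288 in KO (FDR 0.000967), and Bmp1, the C-propeptidase, had 1790.2 and 1980.0 in WT and 2778 and 2534 in KO (FDR 0.0347). Of these 5 genes Adamts14 alone passed limma, with a difference of 1.13 ± 0.178 (adjusted p = 0.046), and not when KO library 1 or either WT library was left out.

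No gene passed in the 5 other steps. The medians were -0.00 over 8 measured genes of collagen secretion, 0.19 over 5 lysyl oxidases, 0.16 over 9 collagen receptors, 0.09 over 12 basement membrane partners and 0.01 over 17 genes of TGF-beta signalling, the main pathway that raises fibrillar collagen transcription. At an unadjusted p under 0.05 in the authors' deposited table, 2 basement membrane partners were lower in KO and 1 higher. TGF-beta signalling had 1 of each, lysyl oxidases and receptors 1 higher each, and secretion 0. The lower genes were Smad3 (0.737-fold, FDR 0.088), Lama5 (0.757-fold, FDR 0.173) and Lamb2 (0.801-fold, FDR 0.332). In the folding list, Serpinh1, the collagen chaperone HSP47, had 7826 and 7787 normalized counts in WT and 9638 and 9957 in KO (FDR 0.279, same table). Crtap, of the prolyl 3-hydroxylase complex, had 732 and 772 in WT and 1074 and 1068 in KO (FDR 0.0671). Both folding genes were higher in both KO libraries without passing. Of the 80 genes of these lists, 5 were called higher and 0 lower by the authors' FDR, beside 1.01% and 1.7% of listed genes.

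**Figure D5:**
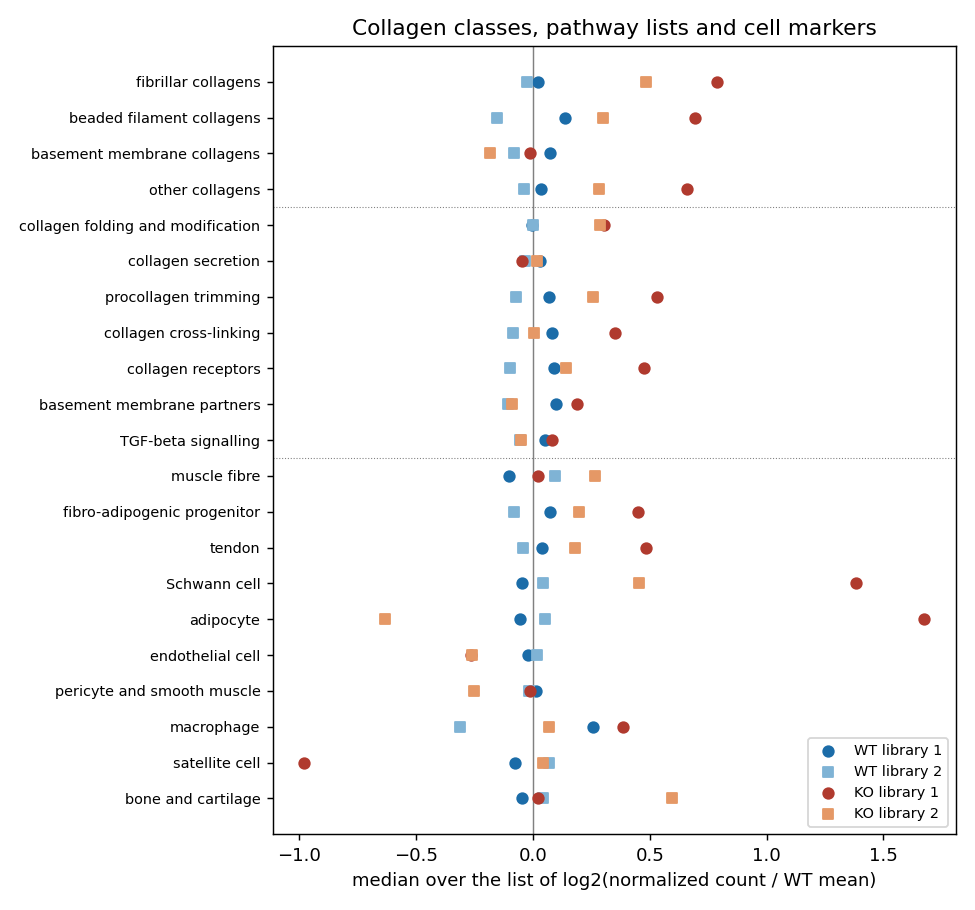
Median over each list of log2 of the normalized count over the WT mean (horizontal axis) in each of the 4 libraries, for the collagen classes, the pathway lists and the marker lists. Folding genes lie at 0.30 in KO library 1 and 0.29 in KO library 2, fibrillar collagens at 0.79 and 0.48, and adipocyte and Schwann cell markers stand far to the right in KO library 1.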

How the data were processed

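Per the labels' protocols, Trizol RNA of flash-frozen muscle went into standard Illumina libraries. The submitters' processing notes name mm10. How reads were aligned and counted, and whether by strand, was not given in the sources used here. Deposited by the authors is a mean normalized count per genotype (a signal: counts divided by a size factor per library, as the recovery below shows); beside it stand the authors' log2 ratio, their p-value and the FDR, and the sheet's name gives DESeq. The deposited log2 ratio equals that of the means to within 1.3e-14.

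A mean of whole counts over size factors moves in fixed steps, 1 for each library. The steps were found in the 300 lowest values of each column with Python 3.11.15 and explained 100% of them, and each of the 14617 genes had exactly 1 solution per column in whole counts of 2 libraries, with a tolerance of 1e-13 of the value. Of the 3 mice per genotype in the labels, which entered is not stated. The size factors ranged from 0.9404 to 1.101.

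Calls rest on the authors' deposited FDR, with a threshold of 0.05. limma 3.58.1 (R 4.3.3) was fitted to log2(normalized count + 1), the pseudocount being 1, for genes with a mean of at least 10, with trend and robust moderation, KO minus WT, two-sided, Benjamini-Hochberg over 14053 genes. The steps were checked on simulated data. Levels between genes were compared per kb of the longest GENCODE M21 APPRIS principal transcript. Shares and ratios are of counts, and counting error alone does not cover the spread between libraries. The members and the lists of pathway genes and markers were chosen with earlier results of these data known, so none is independent support. Values per library are given for members with an unadjusted p under 0.05, the 3 most abundant of each class and their partner chains; 29 genes met this, and others were named after their values were seen. Pathway genes past the FDR were named. Serpinh1, Crtap, Smad3, Lama5, Lamb2 and the single markers were added after their values were seen. The reads of Col9a3 and Tcfl5, whose loci overlap, cannot be told apart where strand is not used. The pathway summary tables were not used.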

Additional observations from a re-analysis of the deposited data

How the results depend on the processing

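The 4 collagen calls by the authors' FDR were also 4 with the adjustment recomputed from the deposited p, at a mean of 50 or more and without chromosomes X and Y; they were 5 at an FDR under 0.1 and 1, Col3a1, at an FDR under 0.01. limma's count of 0 became 1 (Col22a1) with totals without the 20 most abundant genes, a scaling that moved the median of all genes from 0.01 to 0.11, and 0 to 11 with 1 library left out; it was 0 under the other alternatives. Leaving out 1 library put the class medians at 0.483 to 0.787 (fibrillar), 0.299 to 0.693 (beaded filament), 0.285 to 0.658 (other) and -0.212 to 0.011 (basement membrane, above 0 without WT library 1). The collagens with both KO libraries above both WT libraries, checked after seeing the data, were 25 to 28 of 42 under 3 other scalings (31.9%, 30.8% and 39.1% of listed genes), 25 to 34 with 1 library left out (37.1% to 39.6%) and 21 of 35 at a mean of at least 50 (24.6%). limma's single call among the pathway lists became 0 to 6 with 1 library left out. Of 29 named collagens under 13 alternatives each, where a gene was tested, 349 values kept sign and call, 11 passed the threshold and 13 changed sign: after quantile normalization Col4a1 (0.10), Col4a2 (0.13) and Col4a5 (-0.012), with totals without the 20 most abundant genes Col4a2 (0.0054), and with 1 library left out the ranges crossed 0 for Col15a1 (-0.145 to 0.222), Col4a1 (-0.282 to 0.0373), Col4a2 (-0.236 to 0.0459), Col4a5 (-0.142 to 0.216), Col4a6 (-0.0721 to 0.563), Col6a3 (-0.0151 to 0.428) and Col9a3 (-0.493 to 1.36). The cause was not tested. No paired analysis was possible because the recovered libraries carry no replicate numbers. Depth does not limit the abundant chains; the 7 collagens with a mean under 50 normalized counts rest on few reads.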
